A study of Heliconius melpomene cythera and Heliconius melpomene rosina with 32 samples.

Results

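Development of the anterior hindwing was followed in pupae of the butterfly Heliconius melpomene by comparing late with earlier pupal wings. RNA of the anterior hindwing was sequenced in 16 libraries, 1 from each of 16 individuals, out of 32 libraries in the series. All libraries labelled as anterior hindwing were taken, which gave 8 libraries at 70% of pupal development, 7 days after pupation, and 8 at 50%, 5 days after pupation. At each stage, 4 individuals were labelled H. m. cythera, the iridescent subspecies of western Ecuador, and 4 were labelled H. m. rosina, the matt black subspecies of Panama. Both subspecies came from captive populations. By their labels, 2 females and 2 males made up each group apart from rosina at 70%, where all 4 were male. The other 16 libraries were of the forewing and posterior hindwing of the same individuals, and are set against the anterior hindwing only where the stage change itself was compared between wing regions.

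A butterfly wing scale is the outgrowth of a single epithelial cell. Bundles of actin shape it in the pupa, chitin-rich cuticle is then laid down over it as ridges and cross-ribs, and pigment is added late, so that genes of successive steps are active in turn. The anterior hindwing carries the androconial region, which has another type of scale than the rest of the wing. In adult males of Heliconius, androconial scales release scent.

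Total counts per library were 21141907 to 39998474 at 70% (median 28882682) and 28681744 to 45559941 at 50% (median 38283005). The top 10 rows held 31.7% to 38.3% of the counts of a library at 70%, against 19.9% to 26.6% at 50%. A gene without counts in a library may have had up to 3 counts, which is 0.0627 to 0.146 CPM (counts scaled to the normalized library size), and this limit covers counting error only. Most rows carried the ID of an assembled locus (MSTRG), of an annotated gene (HMEL) or both. None of these IDs could be paired with a gene name, so the tissue could not be checked against marker genes, and roles are given only for the few families whose names are part of the IDs. As the wing was sampled in bulk, fewer cells of a type and less RNA per cell cannot be told apart.

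Individuals 13 and 4 stood apart. Individual 13, labelled rosina at 70%, lay at -0.85 on dimension 2 of a multi-dimensional scaling of the 16 libraries, where the other 3 rosina libraries of that stage lay at 1.45 to 1.76 and the 4 cythera libraries at -1.31 to -0.79. By the methods of the study, an individual labelled rosina had been removed as wrongly labelled. Results are therefore also given without individual 13 where that changes them. Individual 4, a cythera male at 50%, lay at 3.58 on dimension 1, which held 39.0% of the variance, against 2.44 to 3.08 for the other 7 libraries of its stage. All libraries at 70% lay between -3.10 and -2.68 on that dimension.

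The first question was which genes change between the stages. Of 15358 genes tested, with subspecies as a term, 5827 were called at a false discovery rate (FDR) under 0.05 in edgeR's quasi-likelihood F-test, which is 37.9%. Of these, 2912 were higher at 70% (19.0%) and 2915 were lower (19.0%). Of the genes tested, 3433 were called with a change of at least 2-fold (22.4%), 1753 higher (11.4%) and 1680 lower (10.9%). At least 10-fold changes were estimated for 678 higher and 551 lower genes, and at least 100-fold changes for 229 and 191. The 8 libraries of a stage did not overlap the 8 of the other in CPM for 2363 of the genes tested, or 15.4%, with 70% above for 1145 (7.46%) and below for 1218 (7.93%), and 2359 of those were among the genes called. Without individual 13, 5734 of 16568 genes were called (34.6%), 2832 higher and 2902 lower, and 5379 of the 5827 genes were still called, with none of the 5827 of opposite sign.

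**Figure D1:**
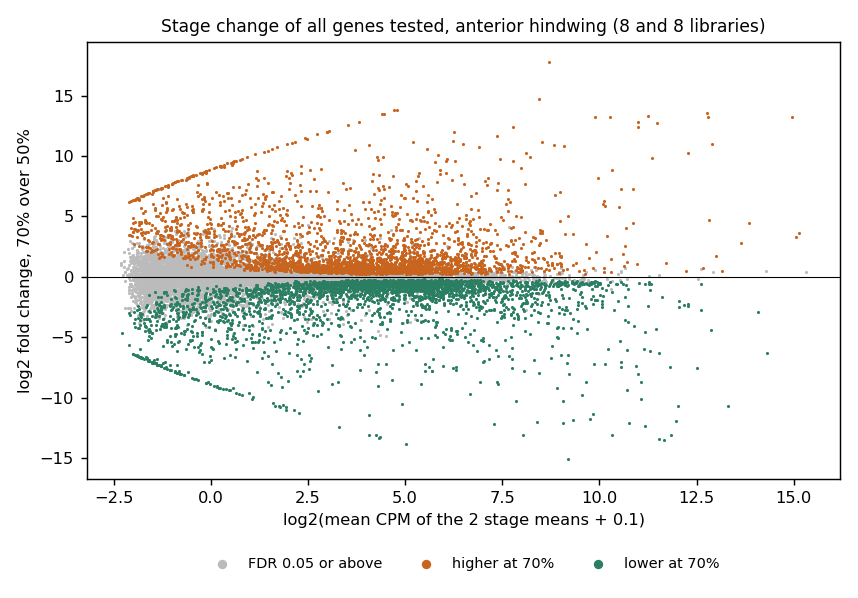
Log2 fold change of 70% over 50% for the 15358 genes tested in the anterior hindwing, against the log2 of the mean CPM of both stages with 0.1 added; each point is 1 gene. Genes called at FDR under 0.05 spread on both sides of 0, 2912 above and 2915 below, and the lines of points at the left edges are genes with no counts at one stage, whose fitted fold depends on the prior count.

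The change in the make-up of the RNA was larger than these even counts show. The 2912 genes called higher took 56.7% to 60.2% of all counts in the 70% libraries (median 57.8%), against 8.03% to 12.2% in the 50% libraries (median 11.0%). The 2915 genes called lower took 14.6% to 17.7% at 70% (median 16.9%), against 62.6% to 70.1% at 50% (median 65.4%). The stages did not overlap in either share, and since the genes were chosen on the same libraries, the shares are a description and were not tested.

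A few genes with very many counts made up much of this (abundance here is CPM, not per length). The 4 most abundant genes called at least 2-fold higher, MSTRG.17422, MSTRG.21385, MSTRG.18983 and MSTRG.15063, together took 18.2% to 23.7% of the counts at 70% and 0.0341% to 2.52% at 50%. The 4 most abundant genes called at least 2-fold lower, MSTRG.11135, MSTRG.6623, MSTRG.16939 and MSTRG.22690, took 0.430% to 0.614% at 70% and 2.87% to 15.4% at 50%. In none of these 8 genes did the libraries of the stages overlap.

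MSTRG.21385, a locus that joins 3 annotated IDs (HMEL002273g1, HMEL004134g1 and HMEL004134g2), had 43062 to 93851 CPM at 70% with a median of 62010, against 1.55 to 26.4 at 50% with a median of 3.65. Its log2 fold change was 13.22 (SE 0.82, edgeR FDR = 5.55e-09). It was nearly silent in every wing at 50%, including that of individual 4, and held several percent of the counts in each of the 8 wings at 70%.

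MSTRG.17422 (HMEL000058) had 53324 to 83801 CPM at 70% (median 66582) and 122 to 9525 CPM at 50% (median 5762), a change of 3.61 on the log2 scale (SE 0.60, edgeR FDR = 0.000155). MSTRG.18983 (HMEL011803g1) had 26824 to 78636 CPM at 70% (median 66303) and 173 to 14272 CPM at 50% (median 6181), a log2 fold change of 3.27 at SE 0.57 (edgeR FDR = 0.000272). MSTRG.15063, which joins HMEL020719g2 and HMEL020719g3, had 17328 to 40692 CPM at 70% (median 27224) and 70.1 to 2850 CPM at 50% (median 981), a log2 change of 4.48 with SE 0.55 (edgeR FDR = 7.96e-06). Unlike MSTRG.21385, these 3 genes were already expressed in most wings at 50%, and the lowest value of each at 50% was that of individual 4.

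Among the abundant genes that fell, MSTRG.16939 (HMEL032518g1) changed most. It had 2.58 to 25.0 CPM at 70% (median 12.7) and 119 to 44601 CPM at 50% (median 17664), a change of -10.65 on the log2 scale (SE 1.11, edgeR FDR = 1.48e-06). MSTRG.11135 (HMEL005816g1) had 391 to 745 CPM at 70% (median 514) and 7374 to 62797 CPM at 50% (median 39864), a log2 fold change of -6.29 at SE 0.42 (edgeR FDR = 1.21e-08). Individual 4 was the lowest library at 50% for these genes too.

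MSTRG.22690 (HMEL009298g2) had 401 to 1050 CPM at 70% (median 711) and 2679 to 21843 CPM at 50% (median 14710), a log2 change of -4.36 with SE 0.38 (edgeR FDR = 2.22e-07). MSTRG.6623, which joins 3 annotated IDs (HMEL004535g1, HMEL009800g1 and HMEL037136g1), had 3147 to 5052 CPM at 70% (median 3995) and 20811 to 41048 CPM at 50% (median 30435), a change of -2.93 on the log2 scale (SE 0.23, edgeR FDR = 5.57e-08). MSTRG.6623 thus stayed abundant in every wing at 70%, although it was lower there.

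**Figure D2:**
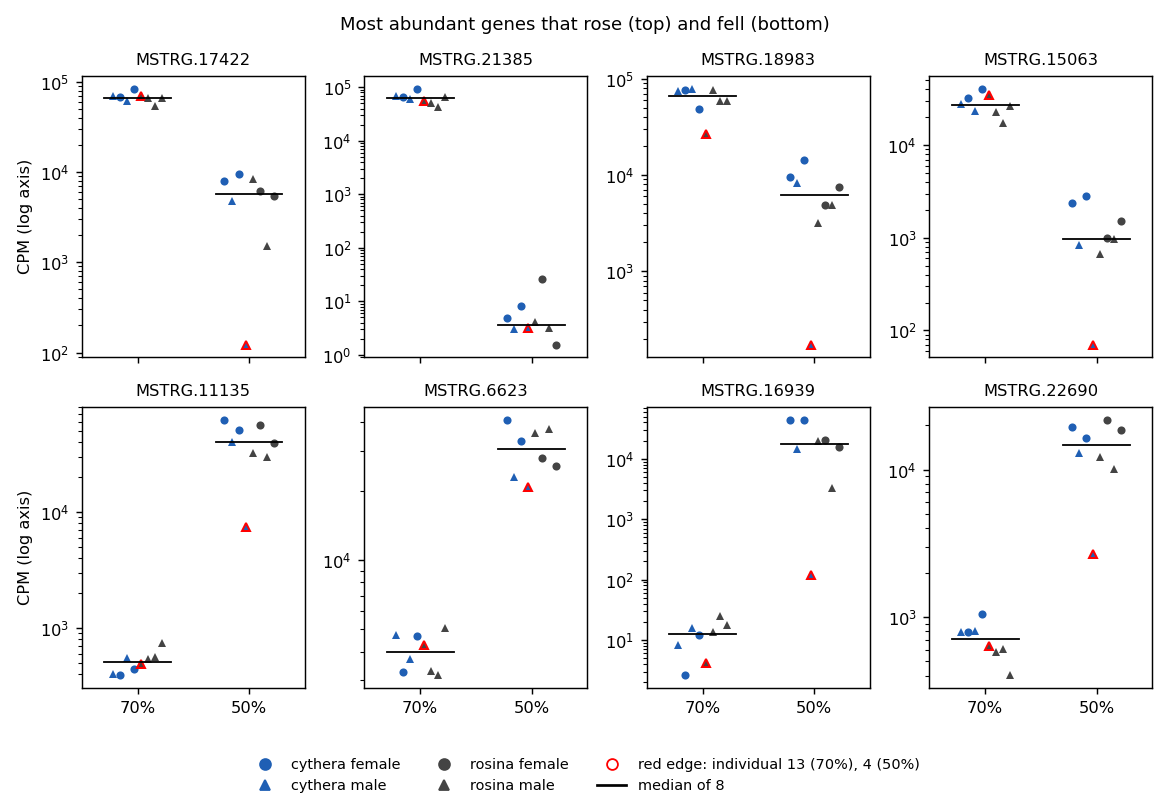
CPM on a log axis of the 4 most abundant genes called at least 2-fold higher (top) and lower (bottom) at 70%, in the 8 libraries at 70% (left in each panel) and the 8 at 50% (right); points are individuals, coloured by labelled subspecies and shaped by sex, and bars are medians of 8. The stages are apart in all 8 panels, and at 50% individual 4 (red edge) is the lowest library for 7 of the 8 genes, MSTRG.21385 being the exception.

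Individual 4 had low values of abundant genes that rose and of abundant genes that fell. Over the genes called higher it was the lowest of the 8 libraries at 50% for 22.6% and the highest for 18.7%, and over the genes called lower it was the lowest for 24.7% and the highest for 23.8%. Each of the other 15 libraries was the lowest or the highest of its stage for 6.90% to 18.3% of those genes. Its part in the results above was not tested beyond leaving it out, which gave 5955 called genes of 16362 (36.4%) and left all 8 abundant genes called.

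The next genes had the smallest p among those with 1 annotated ID and no overlap between stages. Their clear separation of the stages follows from this choice. MSTRG.936 (HMEL004272g1) had 336 to 496 CPM at 70% (median 391) and 46.3 to 53.3 CPM at 50% (median 47.6), a log2 fold change of 3.07 at SE 0.10 (edgeR FDR = 5.26e-12). MSTRG.8346 (HMEL004972g1) had 104 to 232 CPM at 70% (median 188) and 5.54 to 8.23 CPM at 50% (median 6.38), a log2 change of 4.79 with SE 0.16 (edgeR FDR = 1.36e-11). In both genes the values within a stage differed by little more than 2-fold.

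The other 4 of the 6 such genes that rose had log2 fold changes between 2.74 and 5.65. MSTRG.9531 (HMEL007609g1) had 316 to 463 CPM at 70% and 4.20 to 17.8 at 50%, and MSTRG.22390 (HMEL013154g1) had 176 to 291 CPM at 70% and 1.66 to 7.36 at 50%. MSTRG.5450 (HMEL036722g1) had 112 to 193 CPM at 70% and 19.4 to 27.4 at 50%, and MSTRG.23160 (HMEL002480g1) had 33.3 to 58.3 CPM at 70% and 2.55 to 4.38 at 50%. None of the 6 was called for a difference of its stage change between subspecies or between wing regions. Over all genes tested, these calls made up only 0.00651% and 0.637%.

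The 6 genes that fell by the same rule included genes at or near the detection limit at 70%. MSTRG.15051 (HMEL031847g1) had 0.0705 to 0.551 CPM at 70% (median 0.324) and 682 to 1928 CPM at 50% (median 1314), a change of -11.87 on the log2 scale (SE 0.41, edgeR FDR = 1.43e-11). MSTRG.10345 (HMEL017341g1) had 0.220 to 1.20 CPM at 70% (median 0.405) and 1093 to 2631 CPM at 50% (median 1686), a log2 fold change of -11.77 at SE 0.42 (edgeR FDR = 2.02e-11). Both genes were strongly expressed in all 8 wings at 50% and almost gone in all 8 at 70%.

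MSTRG.2657 (HMEL014380g2) had 3.03 to 9.00 CPM at 70% and 2484 to 4133 at 50%, a log2 change of -9.34 with SE 0.28 (edgeR FDR = 5.26e-12). MSTRG.19465 (HMEL016694g1) had the smallest p of these 12 genes, with 13.3 to 21.4 CPM at 70% and 657 to 1079 at 50%, a change of -5.71 on the log2 scale (SE 0.15, edgeR FDR = 1.95e-12). MSTRG.8155 (HMEL013904) had 18.7 to 49.4 CPM at 70% and 841 to 1143 at 50%, and MSTRG.15156 (HMEL010107g1) had 18.8 to 28.2 CPM at 70% and 204 to 335 at 50%. These 4 genes fell without being lost, since every wing at 70% still had more than 3 CPM.

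A further group was present at only 1 stage. In 29 genes every 50% library had at most 3 counts and every 70% library more than 10, and in 32 genes the reverse was seen. All of these were called, which is a consequence of how they were found. Of the 29 genes, 15 were assembled loci with no annotated ID, and of the 32, 16 were. Among all 15358 genes tested, 5420 were such loci, and whether these shares differ was not tested.

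MSTRG.20942 (HMEL010981g1) was the most abundant gene that had no counts in any wing at 50%. At 70% it had 37.9, 919, 895 and 111 CPM in cythera individuals 9 to 12, and 475, 477, 1734.5 and 2030 CPM in rosina individuals 13 to 16. Its mean at 70% was at least 7852-fold higher than 3 counts in the shallowest library at 50%, and 3 counts in the shallowest library of the stage without counts set all such bounds. All 8 wings had switched it on, but to levels that differed widely within each subspecies. MSTRG.12713 (HMEL031152g1) also had 0 counts in all 50% libraries, and 41.7 to 70.2 CPM at 70%, at least 495-fold higher. It was as even between wings at 70% as MSTRG.20942 was uneven.

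MSTRG.149 (HMEL021178g1) had 0 counts at 50% and 1.33 to 119 CPM at 70%, at least 521-fold higher on average. Its 3 lowest values at 70% were 1.33 and 2.33 CPM in females 10 and 12 and 5.86 CPM in male 14, and the other 5 males had 21.7 to 119 CPM. The gene was still called with sex as a term, and the sex difference itself was not tested.

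Of the genes with no counts at 70%, MSTRG.3961 (HMEL004031g1) was expressed in all 8 wings at 50%, at 18.0 to 111 CPM, and was at least 274-fold lower at 70%. MSTRG.5032, a locus with no annotated ID, had 283 and 233 CPM in individuals 1 and 2 at 50% and at most 1.17 CPM in the other 6. MSTRG.22184, another such locus, had 264 CPM in individual 4, 36.2 CPM in individual 7, no counts in individual 3 and at most 8.62 CPM in the other 5. The means of both loci at 50% thus rested on 1 or 2 wings, and with males only MSTRG.5032 was not called (edgeR FDR = 0.0609).

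Rows were also grouped by their IDs. Of 8597 rows tested with a single annotated ID, 1980 were called higher and 1971 lower (46%, against 37.9% of all genes). Of 1341 rows that join several annotated IDs, 352 were called higher and 362 lower (53.2%). Of 5420 assembled loci with no annotated ID, 580 were called higher and 582 lower (21.4%). The median log2 fold change was 0.00 over all genes, 0.01 over single IDs and -0.01 over each of the other classes. Whether the shares differ between these classes was not tested.

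Members of 4 families carry their family name in the ID. Glutathione S-transferases (GSTs) join glutathione to reactive or toxic compounds, and UDP-glycosyltransferases (UGTs) join sugars to small lipophilic molecules, which in insects include plant toxins, hormones and pigments. Gustatory receptors (Grs) and ionotropic receptors (IRs) are chemosensory proteins, and in Drosophila IR25a is a co-receptor that works with more selective IRs. Reads shared between similar members could have been split between them, since how such reads were counted is not given in the sources used here. Levels are compared only within a gene, as gene lengths were not used. The rows of HmIR25a_1, HmIR75d_1, HmGr15_1, HmelUGT40Z2, HmelUGT46D3, HmelUGT46E1 and HmelUGT45B1 also join an HMEL ID. Their counts therefore cannot be assigned to the named member alone.

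Of 33 GST rows, 24 were tested, and 10 of these were called higher and 3 lower at 70%. This is 54.2%, against 37.9% of all genes, 46% of rows with a single annotated ID and 53.2% of joined rows. The median log2 fold change was 0.56 against 0.00 for all genes. Without individual 13, where 16568 genes passed the filter, 10 GST rows were called higher and 4 lower. The 4 include a row that was not among the 24. All 4 members whose stages did not overlap and that rose carried different class letters in their names (HmelGSTo3, HmelGSTd2, HmelGSTu2 and HmelGSTe7). HmelGSTo3, of the omega class, had 37.0 to 73.9 CPM at 70% (median 56.6) and 7.54 to 18.2 CPM at 50% (median 13.6), a log2 fold change of 2.02 at SE 0.18 (edgeR FDR = 2.76e-07). HmelGSTd2, of the delta class, had 1260 to 1763 CPM at 70% (median 1512) and 62.7 to 669 CPM at 50% (median 405), a log2 change of 2.03 with SE 0.32 (edgeR FDR = 0.000111). Its lowest value at 50% was again that of individual 4, and the other 7 wings had 254 CPM or more.

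HmelGSTu2 had 39.9 to 66.4 CPM at 70% (median 58.3) and 19.4 to 36.7 CPM at 50% (median 28.4), a change of 0.95 on the log2 scale (SE 0.14, edgeR FDR = 4.32e-05). HmelGSTe7, of the epsilon class, had 42.6 to 49.1 CPM at 70% (median 46.9) and 32.3 to 40.2 CPM at 50% (median 35.4). This was the smallest change called in the family, with a log2 fold change of 0.38 at SE 0.07 (edgeR FDR = 0.000268). HmelGSTz2, HmelGSTe4, HmelGSTo6, HmelGSTt1 and HmelGSTo4 were also called higher, by 0.53 to 1.20 on the log2 scale, with overlap between the stages.

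HmelGSTe3 was called higher (log2 fold change 1.9, edgeR FDR = 0.0281) on the strength of few wings. It had 26.0, 14.5 and 6.54 CPM in males 11, 13 and 9 at 70%, while the other 5 wings had 1.03 to 2.38 CPM, inside or just below the 1.28 to 3.10 CPM seen at 50%. Its FDR in edgeR was 0.141 without individual 13 and 0.0516 without individual 4. HmelGSTs9 was called higher without individual 13 (edgeR FDR = 0.0225) and not with all individuals (edgeR FDR = 0.0594). The 2 lowest values of HmelGSTe3 at 70%, 1.03 and 1.64 CPM, were in a cythera female and a rosina male. Neither the subspecies label nor sex alone thus separated the high wings from the low ones. Individual 13, labelled rosina, lay with the cythera libraries on dimension 2 of the scaling. If it is grouped with cythera, the high wings were the cythera males. The low ones were then the cythera females and the other rosina males, a pattern that was not tested.

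Of the GSTs that fell, HmelGSTu1 had 0 to 0.488 CPM at 70% (median 0.162) and 0.941 to 3.98 CPM at 50% (median 2.01), a log2 change of -3.65 with SE 0.71 (edgeR FDR = 0.000653). HmelGSTo1 had 36.7 to 61.3 CPM at 70% (median 51.0) and 47.5 to 96.2 CPM at 50% (median 82.9), a change of -0.62 on the log2 scale (SE 0.14, edgeR FDR = 0.00182), and was not called with males only (edgeR FDR = 0.116). So the omega class held members called in opposite directions, HmelGSTo3 higher and HmelGSTo1 lower.

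HmelGSTe2, also of the epsilon class, had the widest spread among the GSTs called. At 70% it had 12.5, 4.25, 91.8 and 7.37 CPM in cythera individuals 9 to 12, and 88.5, 136, 117 and 145 CPM in rosina individuals 13 to 16. At 50% it had 9.90 CPM in individual 4 and 330 to 484 CPM in the other 7. Leaving individual 4 aside, every wing at 70% was thus below every wing at 50%, and the log2 fold change over all 16 was -2.60 (SE 0.73, edgeR FDR = 0.00986). The 3 lowest wings at 70% were all cythera, but no difference of the stage change between subspecies was called for this gene.

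Of 51 UGT rows, 19 were tested, and 4 were called higher and 5 lower. This is 47.4%, against 37.9% of all genes, 46% of rows with a single annotated ID and 53.2% of joined rows. The median log2 fold change was -0.16 against 0.00 for all genes. Without individual 13, 3 were called higher and 4 lower. By subfamily, 3 of the 6 UGT40 rows tested were called higher, where 19.0% of all genes were, and none lower. HmelUGT40Z2 had 4.30, 1.71, 2.61 and 23.9 CPM in cythera at 70% and 12.5, 147, 56.4 and 40.6 CPM in rosina at 70%, against 0.199 to 0.709 CPM in cythera and 0.927 to 2.50 CPM in rosina at 50%. Within each subspecies the stages did not overlap, while across them the lowest cythera wing at 70% was below 2 rosina wings at 50%. The log2 fold change was 4.90 (SE 0.67, edgeR FDR = 2.34e-05).

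The row that joins HmelUGT40V2 and HmelUGT40V3 had 18.1 to 49.6 CPM at 70% (median 32.5) and 0.370 to 12.0 CPM at 50% (median 5.16), a log2 fold change of 2.57 at SE 0.61 (edgeR FDR = 0.00299). HmelUGT40X1 was called with all individuals (log2 fold change 2.53, SE 0.81, edgeR FDR = 0.0218) and not without individual 13, whose 31.1 CPM was its highest value (edgeR FDR = 0.0534). The other UGT40 rows tested were HmelUGT40V1, HmelUGT40Y1 and HmelUGT40U1, with log2 fold changes of 3.15, 0.74 and -0.16 and FDR above 0.05.

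The UGT46 rows went in opposite directions. HmelUGT46D3 had 1.9 to 57.3 CPM at 70% (median 4.41) and 0 to 0.947 CPM at 50% (median 0.447), a log2 change of 5.13 with SE 0.80 (edgeR FDR = 9.20e-05). HmelUGT46E1 had 1.71, 3.84, 3.38 and 0 CPM in cythera at 70% and no more than 0.101 CPM in rosina at 70%, against 17.7 to 204 CPM over all wings at 50% (median 95). Its log2 fold change was -7.46 (SE 1.1, edgeR FDR = 5.54e-05), and a difference of the stage change between the subspecies was not called (5.78, edgeR FDR = 0.519). HmelUGT46D3 was thus low at 50% and HmelUGT46E1 low at 70% in every wing.

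HmelUGT45B1 had 0.225 to 1.73 CPM at 70% (median 0.696) and 1.05 to 12.4 CPM at 50% (median 6.86), a change of -3.05 on the log2 scale (SE 0.46, edgeR FDR = 6.14e-05). HmelUGT44A4 had 21.1 to 38.0 CPM at 70% (median 32.1) and 57.9 to 264 CPM at 50% (median 78.9), a log2 fold change of -1.88 at SE 0.33 (edgeR FDR = 0.000302). At 50%, individual 4 had the lowest value of HmelUGT45B1 and the highest of HmelUGT44A4. HmelUGT33AA2 was also called lower, with no counts at 70% and at most 0.878 CPM at 50%, and so was HmelUGT41E3, which was not called without individual 13 (edgeR FDR = 0.0670) or without individual 4 (edgeR FDR = 0.165). HmelUGT42D1 was called higher without individual 4 (edgeR FDR = 0.00143) and not with all individuals (edgeR FDR = 0.142).

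Few receptor genes were expressed enough to be tested, 6 of 73 Gr rows and 8 of 31 IR rows. No library had more than 60 counts of any Gr row or 87 counts of any IR row that was left out by the filter. Of those tested, 2 Grs were called higher and none lower (33.3%), and 1 IR was called higher and 2 lower (37.5%), beside 37.9% of all genes. The share was 46% for rows with a single annotated ID and 53.2% for joined rows.

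The row of HmIR25a_1, the ionotropic co-receptor, which also joins HMEL014199g1, was the receptor row with the clearest change. It had 102 to 232 CPM at 70% (median 210) and 359 to 1304 CPM at 50% (median 684), with no overlap, a log2 change of -2.02 with SE 0.26 (edgeR FDR = 1.42e-05). At 70% the lowest values were 102 and 105 CPM in females 10 and 12, and the 6 males had 197 to 232 CPM. At 50% the females had 359 to 847 CPM and the males 666 to 1304 CPM, with the highest value in individual 4. The gene was still called with sex as a term and with males only, and the sex difference itself was not tested.

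HmIR75d_1 had 35.4 to 99.1 CPM at 70% (median 39.3) and 16.1 to 42.3 CPM at 50% (median 21.6), a change of 1.06 on the log2 scale (SE 0.29, edgeR FDR = 0.00773). The remaining calls rested on values that were low or uneven between wings. HmIR75p1_1 had 0.172 CPM in 1 wing and none in 7 at 70%, against 0 to 4.39 CPM at 50%, and was not called with males only (edgeR FDR = 0.0635). HmGr15_1 had 23.9 CPM in individual 12 and at most 6.35 CPM in the other 7 wings at 70%, and at most 0.230 CPM at 50%, and was not called without individual 15 (edgeR FDR = 0.149). HmGr52_1 had at most 0.895 CPM in every wing and lost its call in 19 of 27 alternatives.

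**Figure D3:**
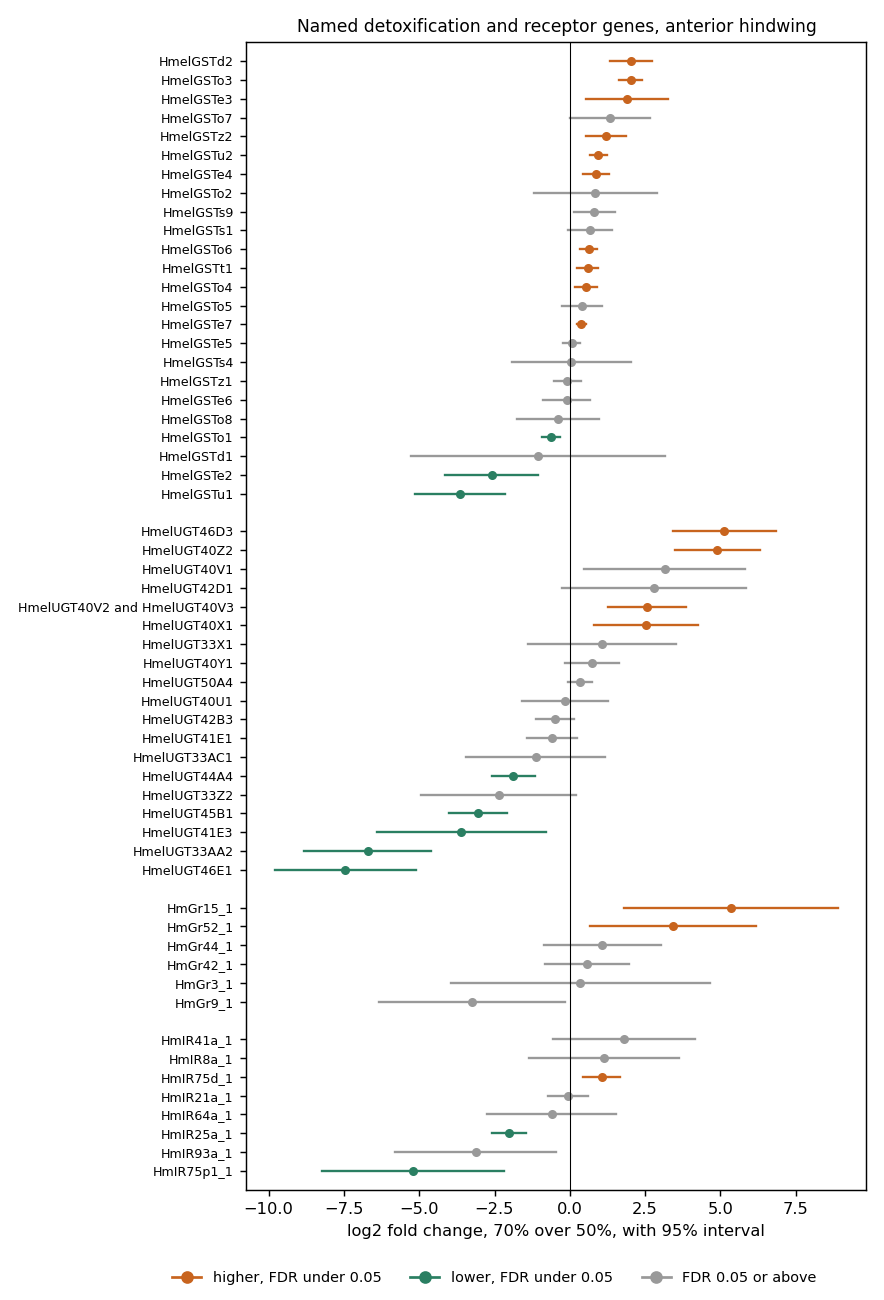
Log2 fold change of 70% over 50% in the anterior hindwing, with its 95% interval, of the 24 GST, 19 UGT, 6 Gr and 8 IR rows tested, ordered within each family. Orange marks the rows called higher and green those called lower at FDR under 0.05. GSTs were called higher in 10 rows and lower in 3, UGT rows spread widely on both sides of 0, and the receptor rows have wide intervals except for HmIR25a_1, HmIR75d_1 and HmIR21a_1.

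At the other end, some genes were close to the same level at both stages. The 3 most abundant genes whose 95% interval of the log2 fold change lay within -0.3 and 0.3 were MSTRG.8169, MSTRG.13075 and MSTRG.7381. MSTRG.8169, which joins HMEL013900g1 and HMEL013900g2, had 559 to 800 CPM at 70% (median 758) and 695 to 877 CPM at 50% (median 762), a log2 fold change of -0.08 (SE 0.09). MSTRG.13075 (HMEL015426g1 and HMEL015426g2) and MSTRG.7381 (HMEL011201g1) had medians of 350 and 326 CPM at 70%, and of 330 and 348 CPM at 50%.

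The next question was whether the subspecies changed alike. Tested alone, the 8 cythera libraries gave 3355 called genes of 12722 (26.4%), 1677 higher and 1678 lower, and the 8 rosina libraries gave 3811 of 12998 (29.3%), 1923 higher and 1888 lower. Without individual 13, 3389 of 14135 were called in rosina (24.0%). Of the 5109 genes called in both subspecies together that were tested in each, 2430 were called in each alone, and all 5109 had the same sign in both, which their choice on the pooled libraries favours. The difference itself was tested by the interaction of subspecies and stage, where 1 of 15358 genes was called in edgeR (0.00651%) and 1119 had an unadjusted p under 0.05. Without individual 13, none of 16568 was called (0.00%), with 1226 at an unadjusted p under 0.05, and DESeq2's Wald test called 131 with all individuals. In simulated counts, the edgeR test recovered 2 of 60 genes given a 2-fold difference between subspecies and 14 of 62 given a 4-fold one. The few calls therefore do not show that the subspecies changed alike.

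The gene called in edgeR with all individuals was MSTRG.25003 (HMEL007282g1). In cythera it had 26.4, 75.5, 38.4 and 96.9 CPM at 70%, and 1830, 1317, 1629 and 2823 CPM at 50%. In rosina it had 2.68, 2.61, 3.32 and 6.15 CPM at 70%, and 2149, 2842, 2753 and 2473 CPM at 50%. The gene fell by 4.99 on the log2 scale in cythera and fell by 9.40 in rosina, and the difference of cythera minus rosina was 4.43 (edgeR FDR = 0.0253).

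At 70% no wing labelled rosina reached the lowest wing labelled cythera. Individual 13, labelled rosina, had 2.68 CPM, within the range of the other rosina wings. It lay with the cythera libraries on dimension 2 of the scaling, however. If it is grouped with cythera, the subspecies overlap at 70%, and this grouping was not tested. The forewing and posterior hindwing of the same individuals had 20 to 80.3 CPM in cythera and 3.12 to 11.3 CPM in rosina at 70%. In cythera the 2 females at 70% had 75.5 and 96.9 CPM and the 2 males 26.4 and 38.4 CPM, whereas all rosina wings at that stage were of males. With males only the difference was 3.36 (edgeR FDR = 0.942), with sex as a term its FDR was 0.122, and without individual 13 it was 0.121.

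**Figure D4:**
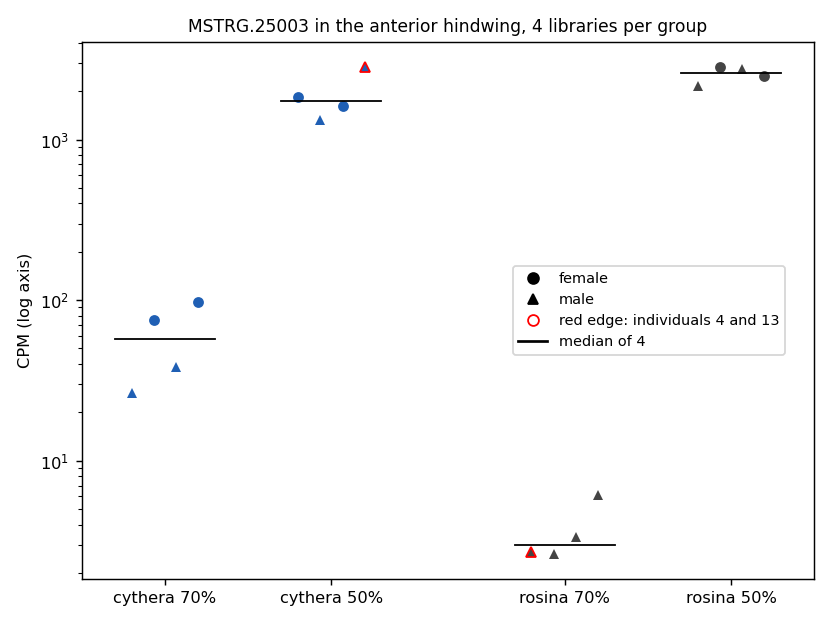
CPM of MSTRG.25003 in the anterior hindwing on a log axis, in the 4 libraries of each subspecies and stage; circles are females, triangles males and bars medians of 4. By label, the cythera wings at 70% sit between 26.4 and 96.9 CPM, above the 2.61 to 6.15 CPM of the rosina wings at 70%. Individual 13, labelled rosina, is at 2.68 CPM. The wings at 50% sit between 1317 and 2842 CPM.

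MSTRG.3173 is an assembled locus that the study names as differing in expression between the subspecies at the earlier stage. The locus did not follow the stage. It had 59.3 and 91.1 CPM in rosina individuals 14 and 15 at 70% and at most 0.633 CPM in the other 6 wings, against 329, 42.9 and 107 CPM in rosina individuals 5, 7 and 8 at 50% and at most 0.342 CPM in the other 5. Its log2 fold change was -1.30 (SE 1.44, edgeR FDR = 0.525). It was detected well above the limit only in wings labelled rosina, and not in all of these. Rosina individuals 6 and 16 had 13 and 25 counts, and individual 13, labelled rosina, had 0. No wing labelled cythera had more than 3 counts. Individual 13 lay with the cythera libraries on dimension 2 of the scaling. If it is grouped with cythera, every rosina wing had more than 3 counts and no cythera wing did. This grouping was not tested.

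The last question was what was particular to the anterior hindwing. In the forewing and posterior hindwing of the same individuals, 6048 of 14722 genes were called for stage (41.1%), 3057 higher (20.8%) and 2991 lower (20.3%) at 70%. The stage change differed between the wing regions for 114 of 17902 genes (0.637%), in a test with individual as a block. This count was 57 without individual 9 or individual 13, 150 without individual 12 and 504 with DESeq2's Wald test. It was more positive in the anterior hindwing for 36 (0.201%) and more negative for 78 (0.436%). Of the 114, 47 were called for stage in both regions, all in the same direction, and for 29 of these 47 the change was the smaller one in the anterior hindwing. A further 17 were called for stage in the anterior hindwing and not in the rest of the wing, 30 in the rest of the wing and not in the anterior hindwing, and 20 in neither.

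MSTRG.11557 (HMEL015914) stood out among these by its size. In the anterior hindwing at 70% it had 124, 0.152, 42.9 and 0.423 CPM in cythera individuals 9 to 12, and 27.5, 69.8, 250 and 108 CPM in rosina individuals 13 to 16. In the anterior hindwing at 50% it had 5.46 CPM in individual 1 and at most 0.780 CPM in the other 7. In the rest of the wing it was at or under 1.97 CPM at 70% and at or under 1.27 CPM at 50%. The gene was thus high only in the anterior hindwing at 70%, and there in the 6 males, while females 10 and 12 were as low as wings at 50%.

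Its stage log2 fold change was 6.25 in the anterior hindwing (SE 1.38, edgeR FDR = 0.00179) and 0.46 in the rest of the wing (SE 1.05, edgeR FDR = 0.772), and the difference was 6.06 (SE 0.66, edgeR FDR = 0.000246). With sex as a term the stage change in the anterior hindwing was 6.15 and was not called (edgeR FDR = 0.0590). Since only 2 of the 8 individuals at 70% were female and 4 of the 8 at 50%, sex and stage are partly mixed in this comparison.

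MSTRG.21770, which joins 3 annotated IDs (HMEL016581g1, HMEL016581g2 and HMEL034481g1), rose in the anterior hindwing, with 60.4 to 117 CPM at 70% (median 87.8) and 38.1 to 66.4 CPM at 50% (median 57.8), a log2 fold change of 0.67 at SE 0.13 (edgeR FDR = 0.000549). In the rest of the wing it had 43.9 to 80.2 CPM at 70% and 40.7 to 67.0 CPM at 50%, a log2 change of 0.09 with SE 0.13 (edgeR FDR = 0.646). The difference was 0.60 (SE 0.07, edgeR FDR = 0.000579). This small difference was called with each individual left out in turn, as were those of the other 3 genes named here.

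MSTRG.25851 (HMEL009811g1) fell in the anterior hindwing, where it had 32.2 to 57.6 CPM at 70% (median 41.6) and 34.4 to 187 CPM at 50% (median 129), a change of -1.51 on the log2 scale (SE 0.28, edgeR FDR = 0.000424). In the rest of the wing it had 34.3 to 64.1 CPM at 70% and 11.2 to 72.3 CPM at 50%, a log2 fold change of 0.21 at SE 0.26 (edgeR FDR = 0.565). The difference was -1.75 (SE 0.18, edgeR FDR = 0.000246). The CPM of the 2 regions were scaled in different sets of libraries. On these CPM, the regions were at similar levels at 70%, and at 50% the anterior hindwing was the higher one in all 8 individuals.

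MSTRG.19321, which joins HMEL007339g1 and HMEL007464g1, did not pass the test for stage in the anterior hindwing, with 6.54 to 11.9 CPM at 70% and 6.81 to 14.1 CPM at 50%, a log2 change of -0.09 with SE 0.16 (edgeR FDR = 0.699). In the rest of the wing it rose, with 7.79 to 12.5 CPM at 70% and 4.21 to 10.1 CPM at 50%, a change of 0.71 on the log2 scale (SE 0.15, edgeR FDR = 0.00138). The difference was -0.80 (SE 0.11, edgeR FDR = 0.00253).

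**Figure D5:**
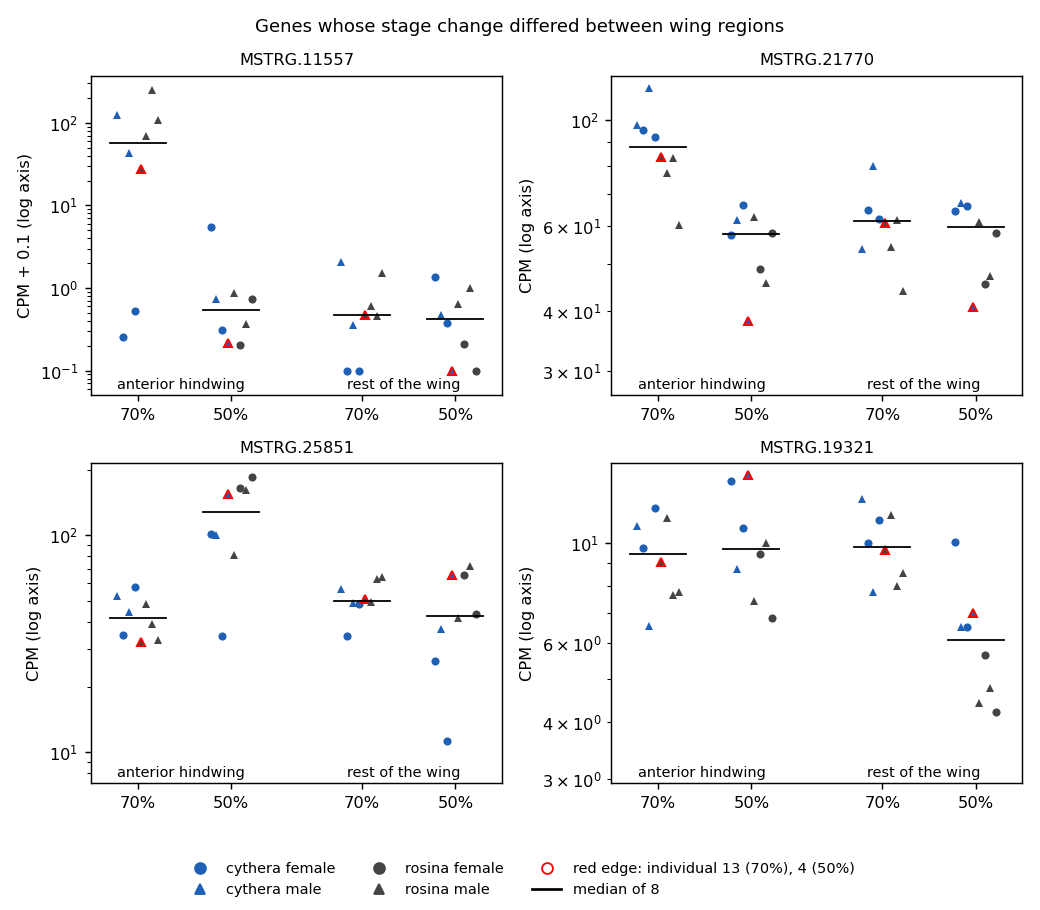
CPM on log axes (0.1 added for MSTRG.11557) of the 4 genes named for a stage change that differed between wing regions, in the anterior hindwing (left of each panel) and the rest of the wing (right) of the same 16 individuals, with 70% left of 50%; bars are medians of 8. MSTRG.11557 is high in 6 male anterior hindwings at 70%, MSTRG.21770 rises and MSTRG.25851 falls in the anterior hindwing, and MSTRG.19321 rises in the rest of the wing. The CPM of the wing regions were scaled in different sets of libraries.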

How the data were processed

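RNA of pupal wings was sequenced from stranded mRNA libraries. Per the submitters' processing notes, reads were handled with Trimmomatic 0.38, HISAT2 2.1.0, SAMtools 1.9 and StringTie 1.3.5, and the authors deposited raw counts per gene, whole numbers not scaled for library size. The genome build, the counting program and its use of strand are not given in the sources used here. None of the 30720 row IDs was found among 15508 genes in the RefSeq table, and 0 columns were left unused.

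The tests were run in edgeR 4.0.16 (limma 3.58.1, R 4.3.3), and plots were made in matplotlib 3.10.9 under Python 3.11.15. Genes were kept by filterByExpr (minimum count 10) over the groups of subspecies and stage, normalized by TMM and tested with the quasi-likelihood F-test in its earlier form, with subspecies as a term. P-values were adjusted over all tested genes by Benjamini-Hochberg, and an FDR under 0.05 made a call. SE was derived from the F statistic. Each individual is 1 replicate at 1 stage, so the stage test has no block. The wing-region test had individual as a block, as the labels give both libraries of a number to the same animal. CPM of the anterior hindwing were scaled within its 16 libraries, and CPM of the rest of the wing within all 32. Deviations of these 2 libraries from their group means correlated at 0.636 to 0.846 (median 0.712, 16 pairs). Libraries of a group differed by far more than sampling noise (chi-square per degree of freedom 88.8 to 1589).

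Genes were named by rule: the 6 with the smallest p in each direction among single-ID genes without overlap, the 4 most abundant in each direction with at least a 2-fold change, the 3 most abundant with at most 3 counts per library at the other stage, family members, the 2 with the smallest p in each direction of an interaction, the 3 most abundant steady genes, and MSTRG.3173. HmelGSTd2, HmelGSTe7, HmelGSTe3, HmelGSTe2 and the UGT rows other than HmelUGT40Z2, HmelUGT46D3, HmelUGT46E1 and HmelUGT45B1 were described after their values were seen. The libraries, lists and rules were chosen with earlier results of these data known. Alternatives were other scalings (RLE, library totals, without the most abundant rows), other filters, DESeq2 1.42.0, the newer quasi-likelihood form, robust moderation, a sex term, no subspecies term, males only, a 1.5-fold threshold, no block, and each individual left out. The scripts were tested on simulated data.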

Additional observations from a re-analysis of the deposited data

Results flagged for a closer look

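In 15 of 101 groups of 8 values, the highest or lowest library lay far from the others by Dixon's test at 95%. About 5.05 would be flagged by chance if the values were independent and normally distributed. That was not the case, as the groups mixed subspecies and sexes. For HmGr52_1 at 50% and HmIR75p1_1 at 70%, all other libraries were tied without counts. The 15 are therefore not a tested excess over chance. Individual 4 gave 8 of the 15, all low values at 50%. On the log2 CPM scale these were 6.93 for MSTRG.17422 (10.58 to 13.22 in the other 7 libraries), 7.43 for MSTRG.18983 (11.63 to 13.80), 6.13 for MSTRG.15063 (9.38 to 11.48), 12.85 for MSTRG.11135 (14.87 to 15.94), 6.89 for MSTRG.16939 (11.67 to 15.44), 11.39 for MSTRG.22690 (13.29 to 14.41), 7.67 for MSTRG.15156 (8.24 to 8.39) and 0.15 for HmelUGT45B1, locus MSTRG.24209 (2.53 to 3.64). The first 3 of these genes were higher at 70% and the other 5 lower, so the low values went both towards and away from the 70% level.

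Individual 13 was low for MSTRG.18983 at 70%, at 14.71 (15.55 to 16.26 in the others), and was the only library at 70% with counts of HmIR75p1_1, locus MSTRG.17065, at -2.11. Individual 1 was high at 50% for MSTRG.11557, at 2.46 (-2.60 to -0.25 in the others), and was the only library at 50% with counts of HmGr52_1, locus MSTRG.12141, at -1.27. At 70%, individual 15 was low for MSTRG.8346, at 6.71 (7.36 to 7.86), and individual 14 high for MSTRG.22390, at 8.18 (7.46 to 7.70). At 50%, individual 7 was low for HmelGSTo1, locus MSTRG.7963, at 5.57 (6.18 to 6.59).

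Differences of the stage change passed their own test for MSTRG.25003, at 4.43 for cythera minus rosina, and for the anterior hindwing minus the rest of the wing at 6.06 for MSTRG.11557, 0.60 for MSTRG.21770, -1.75 for MSTRG.25851 and -0.80 for MSTRG.19321 on the log2 scale.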

How the results depend on the processing

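The counts of genes changed with stage stayed within 1.5 times under other scalings, filters, DESeq2 and terms, and moved with males only (1793 higher, 1920 lower) and in a test against a 1.5-fold change (1646 higher, 1556 lower), which by construction has fewer samples or a stricter threshold. Of the 5827 genes called, 2 changed sign with males only and none under any other alternative, and neither of the 2 was called. With 1 individual left out, 2773 to 3038 genes were higher and 2795 to 2917 lower, 2664 to 3790 were called in cythera and 3129 to 3473 in rosina. With individuals 4 and 13 both left out, chosen after their positions had been seen, 2904 were higher and 2848 lower.

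The test of subspecies by stage called 131 genes with DESeq2, 0 with a sex term (984 at an unadjusted p under 0.05), 0 with males only (708, added after seeing the data), 5 without individuals 4 and 13, and 0 to 6 with 1 individual left out (6 without individual 3, 3 without 4 and 2 without 6 or 16). MSTRG.25003 lost its call without any of individuals 1, 2, 5, 7, 8, 10, 12, 13, 14 and 15 (edgeR FDR 0.0527 to 0.121). The cause of these changes was not tested.

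The test of wing region by stage called 504 genes with DESeq2 and, with 1 individual left out, 57 (without 9 or 13) to 150 (without 12); it was 58 without 11, 59 without 16, 61 without 5 or 7, 65 without 2 or 15 and 74 without 3. Without the pairing of regions by individual, in the fit with no block, 0 genes were called in edgeR and 493 had an unadjusted p under 0.05. No paired analysis was possible for stage because each individual was sampled at 1 stage. Of 1460 values of named genes under alternatives, 1416 kept direction and side of the threshold, 44 lost the call and 0 reversed. Depth limits what can be said of the receptors, as 24 of 73 Gr rows and 16 of 31 IR rows had any counts in the 16 libraries, and 6 and 8 were tested.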
